A study of Mus musculus with 6 samples.

Results

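The genes described here build and move cilia: the structural and motor proteins of the motile axoneme, the subunits of intraflagellar transport (IFT), and the transcription factor gene Foxj1. They were taken by name from the protein-coding genes of the table, as every symbol that starts with Cfap, Dnah, Dnaic, Dnali, Dnaaf, Rsph, Tekt, Spag or Ift followed by a digit, together with Foxj1 and Sntn. This gave 85 of 22239 genes: 70 axoneme genes (26 Cfap, 18 dynein arm, 9 Spag, 7 radial spoke, 5 tektin and 4 dynein assembly genes, and Sntn), 14 Ift genes and Foxj1. RNA had been sequenced in bulk from 3 populations of mouse lung epithelial cells, with 2 samples of each, from mice aged 8 weeks. Bronchioalveolar stem cells (BASC), found where the bronchiole meets the alveolus, were sorted by flow cytometry as CCSP-mCherry+/SPC-YFP+. The surfactant-producing alveolar type 2 (AT2) cells were taken as SPC-YFP+, and Club cells, secretory cells of the bronchiole, as CCSP-mCherry+. CCSP is the product of Scgb1a1 and SPC that of Sftpc, so each sort rests on the activity of those 2 genes, and CD31/CD45 depletion of the lung homogenates came first for all 3 populations. The labels give no other genotype or treatment, and do not say whether the 2 samples of a population came from separate animals, so the p-values measure the spread between these samples, which may be technical.

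A motile cilium is a bundle of doublet microtubules around a central pair, and it beats when dynein arms walk along neighbouring doublets. Radial spokes and the central pair shape the beat, tektins and other inner proteins brace the doublets, and assembly factors fold the dyneins in the cytoplasm before they are carried into the cilium. IFT trains, made of the IFT-A and IFT-B complexes, carry cargo along the axoneme of motile and of non-motile primary cilia alike, so Ift genes are used by most cell types, whereas axoneme genes serve multiciliated cells and sperm. In the airway, multiciliated cells stand beside Club cells, and Foxj1 is the factor that switches on their axoneme genes, together with the RFX factors, which also act on IFT genes through X-box sites.

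The promoters of a few members are printed first, as examples with and without the sequences on which these factors are known to act. They come from genes of opposite levels: Sntn and Cfap161 were listed at 0 in all BASC and AT2 samples, whereas Ift57 and Ift20 were present in all 6 samples. Each run below holds the 250 bases before the RefSeq start, on the strand of the gene, in GRCm38.p6. Capitals mark the X-box core GTTGCC or its reverse complement, and in Sntn also the forkhead core GTAAACA. The positions are chr14:13670626-13670875 on the plus strand for Sntn, chr7:83794840-83795089 on the minus strand for Cfap161, chr16:49699044-49699293 on the plus strand for Ift57 and chr11:78536111-78536360 on the plus strand for Ift20.
Sntn: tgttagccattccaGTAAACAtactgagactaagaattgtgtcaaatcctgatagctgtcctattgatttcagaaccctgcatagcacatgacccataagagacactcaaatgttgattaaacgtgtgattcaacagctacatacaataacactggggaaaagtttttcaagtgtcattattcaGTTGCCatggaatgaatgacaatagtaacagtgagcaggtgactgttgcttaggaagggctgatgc
Cfap161: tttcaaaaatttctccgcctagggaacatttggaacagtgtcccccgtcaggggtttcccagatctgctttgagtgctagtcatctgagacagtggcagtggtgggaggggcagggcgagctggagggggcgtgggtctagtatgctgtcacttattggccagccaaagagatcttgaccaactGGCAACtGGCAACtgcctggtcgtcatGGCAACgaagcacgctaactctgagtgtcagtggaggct
Ift57: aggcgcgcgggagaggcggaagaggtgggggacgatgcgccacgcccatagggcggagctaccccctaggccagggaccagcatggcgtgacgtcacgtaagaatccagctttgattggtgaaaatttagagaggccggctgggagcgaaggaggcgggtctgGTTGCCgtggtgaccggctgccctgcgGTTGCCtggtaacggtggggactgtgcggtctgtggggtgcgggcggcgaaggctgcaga
Ift20: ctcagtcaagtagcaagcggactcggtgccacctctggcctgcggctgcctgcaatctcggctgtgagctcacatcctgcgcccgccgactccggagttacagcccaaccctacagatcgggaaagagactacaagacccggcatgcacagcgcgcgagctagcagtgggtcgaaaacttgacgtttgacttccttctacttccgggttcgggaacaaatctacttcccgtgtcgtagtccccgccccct
In Sntn the X-box core lay 66 bases and the forkhead core 236 bases before the start. Cfap161 held the X-box core in reverse complement 66, 59 and 39 bases before the start, and Ift57 held it as written 87 and 60 bases before the start. Ift20 held neither motif in its window. The printed promoters are examples and do not stand for all members with such levels. Of the 5 axoneme genes listed at 0 in all BASC and AT2 samples, the others, Cfap99, Dnah12 and Tekt3, held no X-box core.

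Promoter windows of 250 bases before to 50 bases after the start were found in RefSeq for 69 of the 85 genes, among them 58 axoneme genes and 11 Ift genes. Both strands were searched. GTTGCC was present in 22 of the 58 axoneme genes (37.9%) and in 5 of the 11 Ift genes (45.5%), against 14.4% of 17492 protein-coding genes with a window. GTAAACA was present in 5 axoneme genes (8.62%) and in none of the 11 Ift genes, against 3.45% of protein-coding genes. The full X-box pair, which can contain GTTGCC, was searched in a single form, with 2 cores facing each other across a gap of 2 bases. This form was present in none of the 69 genes and in 0.497% of protein-coding genes. Pairs with another gap or with other core variants were not searched, so their absence is not shown. The printed Ift57 window, for example, holds 2 facing cores with a shorter gap. These matches are descriptions of the letters in the windows. Genes of both sides carried the X-box core, among them Dnah10, Tekt1, Cfap44 and Spag16 of the axoneme, and Ift88, Ift140 and Ift172 of IFT.

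The table holds normalised read counts that the authors made by scaling and rounding, and between 10121884 and 18203252 reads per sample were estimated from it. The genes behind the 2 reporters followed the sort. Sftpc was at 290809 and 307458 in the BASC samples, 301267 and 373742 in the AT2 samples and 240 and 224 in the Club samples, and Scgb1a1 was at 43993 and 58791, 413 and 302, and 751642 and 760675. Scgb1a1 in BASC thus stood at 6.80% of its Club level. The 2 basal cell markers in the table, Krt5 and Trp63, summed to between 0 and 43 in all samples.

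Axoneme genes were high in Club cells and low in BASC and AT2 cells, whereas Ift genes were present in all 3 populations. Summed over the 70 axoneme genes, the normalised counts were 8707 and 7768 in the BASC samples, 7456 and 7255 in the AT2 samples and 32691 and 32187 in the Club samples. Without Spag4, Spag5, Spag7 and Spag9, whose proteins are not known as axoneme parts, the sums were 4998 and 4066, 4019 and 3270, and 30154 and 29462. Both Club samples lay above all others in both sums. For the 14 Ift genes the sums were 4631 and 4241 in the BASC samples, 4847 and 4387 in the AT2 samples and 6278 and 6215 in the Club samples, also with both Club samples above the rest, but with BASC at 71.0% and AT2 at 73.9% of the Club mean. Because the samples are bulk RNA, fewer cells of a type and less RNA per cell cannot be told apart.

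**Figure D1:**
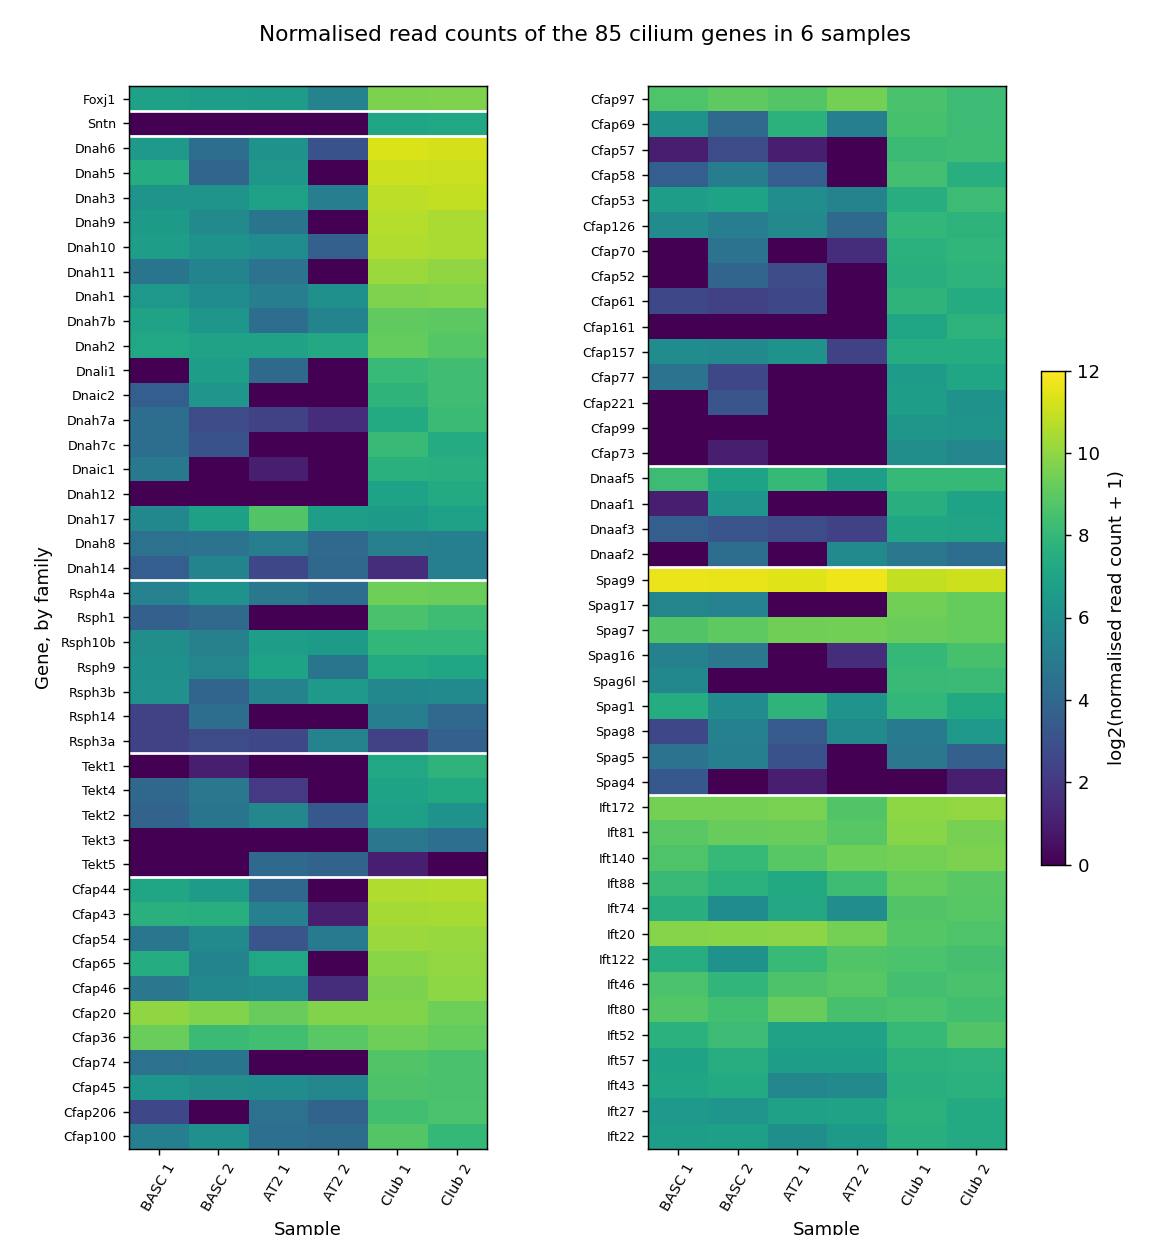
Normalised read counts of all 85 genes on a log2(value + 1) colour scale, with genes as rows in 2 panels, grouped by family between white lines and ordered by Club level, and the 6 samples as columns. Most dynein arm rows are brighter in the Club columns than in the other 4, Dnah17 and Dnah14 being exceptions, with Dnah6 at 2566 and 2369 in Club cells, whereas the Ift rows are bright in all columns.

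Tests were made on log2(value + 1) with limma in a single fit of the 6 samples, with Benjamini-Hochberg adjustment over 17721 genes, and a gene counted as called at an adjusted p under 0.05. All members but Spag4 (9 in 1 BASC sample and at most 1 elsewhere) passed the filter of at least 10 in 2 samples. Of the 69 axoneme genes that passed, 21 had fewer than 2 BASC or AT2 values of 10 or more, and 10 of these had none. These 21 passed because of their Club values, so the filter favoured their direction against Club cells, and the counts and medians below describe the genes that passed. In BASC against Club cells, 26 axoneme genes were lower and 1 (Spag9) was higher, where 5.42% of all genes tested were lower in BASC and 5.77% were higher. The median fitted log2 difference of the 69 was -3.58 (-3.53 with genes at 0 in a group set to the 3-read floor), against -0.10 over all genes tested. In AT2 against Club cells, 46 axoneme genes were lower and 1 (Spag9) was higher, where 9.71% of all genes were lower in AT2 and 8.42% were higher, and the median was -5.73 (-4.81 with the floor), against -0.10 over all genes. Of the genes called lower, 11 in BASC and 20 in AT2 were among the 21 that passed because of Club values. Among the 48 others, a split made after the values were seen, 15 were lower and 1 higher in BASC (median -2.60), and 26 were lower and 1 higher in AT2 (median -3.64). At an unadjusted p under 0.05, 13.3% of all genes tested were lower and 11.3% higher in BASC than in Club cells, and 16.6% were lower and 13.9% higher in AT2. These 2 comparisons share the Club samples. The counts depended on the number of libraries: in BASC against Club cells, 14 and 13 axoneme genes were called without BASC replicate 1 or 2 and 7 without either Club replicate, and in AT2 against Club cells 12 and 11 were called without Club replicate 1 or 2.

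Without a test, both Club samples lay above the other 4 in 53 of 70 axoneme genes, in 9 of 14 Ift genes and in Foxj1, where this held for 20.5% of all genes tested. The 17 axoneme genes outside this count included 6 Spag genes, the radial spoke genes Rsph14, Rsph3a and Rsph3b, Dnah14 and Dnah17, Dnaaf2 and Dnaaf5, Cfap20, Cfap36 and Cfap97, and Tekt5. Among axoneme genes with a Club mean of at least 50, the median gene stood in BASC at 8.50% and in AT2 at 2.01% of its Club level (60 genes). For the Ift genes these medians were 66.8% and 60.3% (14 genes).

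Foxj1 (ENSMUSG00000034227, chr11:116330704-116335399, minus strand), the forkhead factor of motile ciliogenesis, was measured at 115 and 100 in the BASC samples, 96 and 40 in the AT2 samples and 795 and 825 in the Club samples. Its 2 Club values lay far above the 4 others, and the BASC values lay just above those of AT2. The Club mean was 7.53-fold above BASC (log2 difference -2.91 ± 0.46 SE, limma adjusted p = 0.00866) and 11.9-fold above AT2 (-3.68, adjusted p = 0.00190). Leaving out 1 library kept the size of the difference but ended the call in BASC against Club cells for each BASC and each Club library (adjusted p between 0.0671 and 0.177), and in AT2 against Club cells for each Club library (0.0852 and 0.0864). Between BASC and AT2 the difference was 0.78 on the log2 scale and was not called (adjusted p = 0.542).

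Sntn (ENSMUSG00000044772, chr14:13670876-13683148, plus strand) encodes sentan, a protein of the tip of airway motile cilia. It was listed at 0 in all 4 BASC and AT2 samples and at 138 and 140 in Club cells. Against a floor of 3 reads per library, it was at least 41.1-fold lower in BASC (limma adjusted p = 0.00576) and at least 50.5-fold lower in AT2 (adjusted p = 0.00364). Both calls were kept in all 17 alternative settings. However, a gene at 0 in both samples of a group shows no spread there, and Sntn passed the filter through its Club values. Here, and for the genes below listed at 0 or 1 in a group, a kept call is therefore not firmer evidence than a call lost for a gene with more reads. The promoter printed above is one of 5 axoneme windows with the forkhead core, the others being those of Cfap43, Tekt3, Cfap20 and Dnah17. Cfap20 and Dnah17 were not called in any comparison.

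Among other regulators of multiciliated cells, Trp73, Deup1 and Myb were likewise called lower in both populations than in Club cells. Trp73, the p53 family factor upstream of Foxj1, was listed at 0 in all BASC and AT2 samples and at 192 and 227 in Club cells. Deup1, which forms the deuterosomes that multiply centrioles, was at 1 and 0 in the BASC samples, 0 in both AT2 samples and 158 and 126 in the Club samples. Myb, a factor of early multiciliogenesis, was at 1 and 17, 0 and 19, and 537 and 599. In these 3 genes the Club samples stood far apart from the rest. Trp73, Deup1 and Myb were lower than in Club cells in BASC (limma adjusted p = 0.00421, 0.00916 and 0.0468) and in AT2 (0.00256, 0.00419 and 0.0266). The calls of Trp73 and Deup1 were kept in all alternatives, and those of Myb were lost without each Club library, without each BASC library in BASC and without AT2 replicate 1 in AT2 (adjusted p up to 0.370 and 0.270). The Myb call in BASC was lost in 8 of 17 alternatives in all, also with a pseudocount of 0.5, without the filter, with quantile normalization and without the trend, and that in AT2 also without the trend.

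Gmnc encodes the geminin-related regulator GEMC1 at the head of the multiciliated programme. It differed from Trp73, Deup1 and Myb in its BASC values, with 76 and 210 in the BASC samples, 0 in both AT2 samples and 286 and 572 in the Club samples. Some axoneme genes, such as Spag17 and Drc1, had the same order of groups. It was higher in BASC than in AT2 (limma adjusted p = 0.0220) and lower in AT2 than in Club cells (0.000688), and in BASC it stood at 33.3% of its Club level. The call between BASC and AT2 was lost without each of the 6 libraries in turn (adjusted p between 0.0773 and 0.272). Mcidas, which encodes multicilin, was at 59 and 82 in the BASC samples, 55 and 11 in the AT2 samples and 47 and 15 in the Club samples, and was not called in any comparison. Rfx1, Rfx2 and Rfx3, which bind X-boxes, were present in all samples at between 141 and 700 and were not called. Of the 16 regulators beside Foxj1, 3 were lower in BASC and 4 lower in AT2 than in Club cells, and 1 was higher in BASC than in AT2, where 5.42%, 9.71% and 0.553% of all genes were called in these directions.

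**Figure D2:**
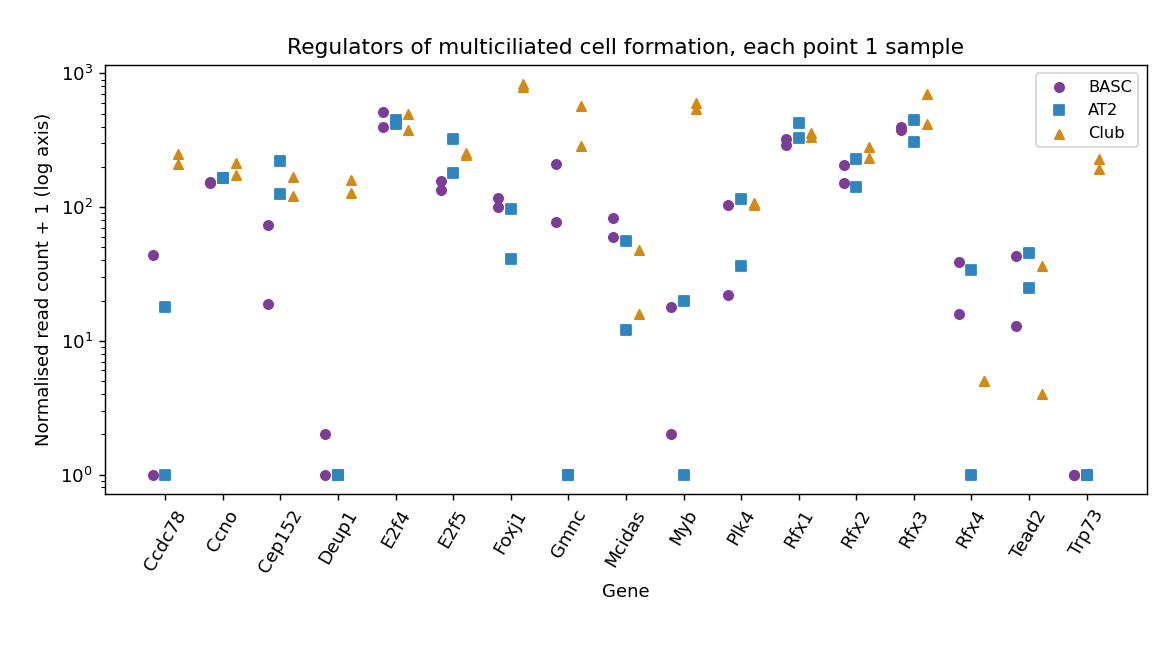
Normalised read counts plus 1 on a log axis for the 17 regulators of multiciliated cell formation, each symbol 1 sample (circles BASC, squares AT2, triangles Club cells). Foxj1, Myb, Deup1 and Trp73 have Club triangles far above the other symbols, Gmnc has AT2 squares at 0, and Rfx1, Rfx2 and Rfx3 lie between 141 and 700 in all groups.

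Dynein arm genes, the motors of the axoneme, stood lower by more than an order of magnitude in sum. The 18 genes together came to 1050 and 888 normalised counts in the BASC samples, 1031 and 443 in the AT2 samples and 14114 and 13783 in the Club samples, so BASC stood at 6.95% and AT2 at 5.28% of the Club mean. In BASC against Club cells limma called 8 of 18 lower and 0 higher (14 and 0 at an unadjusted p under 0.05), where 5.42% of all genes were called lower (13.3% unadjusted). In AT2 against Club cells 14 were lower and 0 higher (15 and 0 unadjusted), where 9.71% of all genes were called lower (16.6% unadjusted). Family medians of the log2 difference were -4.16 and -5.98 (-5.79 with the floor).

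Among the inner arm heavy chains, the motors that shape the bend, Dnah6 (chr6:73017606-73221651) was at 90 and 19 in the BASC samples, 68 and 7 in the AT2 samples and 2566 and 2369 in the Club samples. It was 45.3-fold lower in BASC (log2 difference -5.85 ± 1.07, limma adjusted p = 0.0152) and 65.8-fold lower in AT2 (-6.71 ± 1.07, adjusted p = 0.00545). Dnah3 was at 74 and 74, 117 and 34, and 1769 and 1932, and was lower in BASC by a factor of 25.0 (adjusted p = 0.00245) and in AT2 by 24.5 (0.00119). Its exons share 10.5% of their bases with Lyrm1 on the opposite strand, and the strand setting of the counting is not given in the sources used here, so reads of such pairs cannot be told apart. Dnah10 was at 106 and 68, 57 and 12, and 1512 and 1443, and Dnah1 was at 82 and 56, 34 and 63, and 824 and 879. In all 4 genes both Club samples lay above all others, while BASC and AT2 overlapped in Dnah6, Dnah3 and Dnah1. Dnah10 and Dnah1 were lower in BASC (0.0109 and 0.00311) and in AT2 (0.00156 and 0.00102). The calls of these 4 genes were lost without either Club library, in BASC those of Dnah6 and Dnah10 also without either BASC library and that of Dnah3 without BASC replicate 2. Over the alternatives the highest adjusted p of each of the 8 calls lay between 0.0630 (Dnah1 in AT2) and 0.274 (Dnah6 in BASC).

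Dnah12, another inner arm heavy chain, was listed at 0 in all BASC and AT2 samples and at 123 and 158 in Club cells, at least 41.5-fold lower in BASC (limma adjusted p = 0.00581) and at least 51.1-fold lower in AT2 (0.00370). Both calls were kept in all alternatives. Dnah7a was at 19 and 6, 4 and 2, and 163 and 293, and Dnah7c at 19 and 7, 0 and 0, and 271 and 166. These 2 genes and Dnah7b are close copies, and how reads were split between them is uncertain.

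The outer arm heavy chains, the power motors of the beat, were also high in Club cells. Dnah5 (chr15:28203752-28472045) was at 169 and 14 in the BASC samples, 81 and 0 in the AT2 samples and 2147 and 2110 in the Club samples. The spread within BASC was wide, and Dnah5 was not called there (23.3-fold lower, log2 difference -5.40 ± 1.96, limma adjusted p = 0.141), whereas it was lower in AT2 (52.6-fold, adjusted p = 0.0323), a call lost without 5 of the 6 libraries (all but AT2 replicate 1; adjusted p up to 0.331 over the alternatives). Dnah9 was at 91 and 51, 24 and 0, and 1635 and 1427, lower in AT2 (128-fold, adjusted p = 0.00595) and not called in BASC (adjusted p = 0.0824). Dnah11 was at 24 and 41, 23 and 0, and 1189 and 1031, lower in AT2 (96.5-fold, 0.00811) and not called in BASC (0.0574). The calls of Dnah9 and Dnah11 in AT2 were lost without either Club library, with adjusted p up to 0.175 and 0.193.

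The intermediate chains of the outer arm were lower in AT2 too. Dnaic2 was at 11 and 78 in the BASC samples, 0 in both AT2 samples and 219 and 314 in the Club samples, at least 96.9-fold lower in AT2 (limma adjusted p = 0.00357). Dnaic1 was at 28 and 0, 1 and 0, and 197 and 189, lower in AT2 (adjusted p = 0.0248). Leaving out either Club library ended both calls, and that of Dnaic1 was also lost without either AT2 library (adjusted p up to 0.0918 for Dnaic2 and 0.231 for Dnaic1).

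Dnah17 and Dnah8, outer arm heavy chains known from sperm, did not follow the others, and were singled out after their values were seen. Dnah17 was at 48 and 111 in the BASC samples, 429 and 104 in the AT2 samples and 92 and 114 in the Club samples, with its highest value in 1 AT2 sample. Dnah8 was at 21 and 23, 34 and 16, and 36 and 35. Neither was called in any comparison.

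Among the 7 radial spoke genes, the spoke head genes Rsph1 and Rsph4a were lower in both populations. Rsph1 was at 12 and 17 in the BASC samples, 0 in both AT2 samples and 379 and 310 in the Club samples, 23.8-fold lower in BASC (limma adjusted p = 0.0255) and at least 125-fold lower in AT2 (0.00113). Rsph4a was at 39 and 71, 27 and 19, and 645 and 638, 11.7-fold lower in BASC (0.00621) and 27.9-fold lower in AT2 (0.00109). Both genes had BASC values above those of AT2 without overlap. Rsph10b was at 59 and 36, 104 and 91, and 247 and 248, lower in BASC (5.21-fold, 0.0202) and not called in AT2 (0.10), and here the BASC values lay under those of AT2. Exons of Rsph10b share 10.5% of their bases with Gm42421 and 2.74% with Pms2, both on the same strand. Of the 7 genes, 3 were lower in BASC and 3 in AT2, the third in AT2 being Rsph14 with 4 and 19, 0 and 0, and 34 and 16 (adjusted p = 0.0365). Of all genes tested, 5.42% were called lower in BASC and 9.71% in AT2. The call of Rsph1 in AT2 was kept in all alternatives. The other 5 calls were lost without either Club library, in BASC that of Rsph1 also without either BASC library and that of Rsph10b without BASC replicate 2, and that of Rsph14 also without either AT2 library (adjusted p up to 0.197). Rsph9, of the spoke head, was at 63 and 44, 122 and 24, and 158 and 132 and was not called. Rsph3a and Rsph3b are close copies whose reads may be split, and neither was called.

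Tektins, filament proteins inside the doublet wall, included genes with almost no reads outside Club cells. Tekt1 was at 0 and 1 in the BASC samples, 0 in both AT2 samples and 146 and 223 in the Club samples, lower in BASC (limma adjusted p = 0.00745) and at least 67.1-fold lower in AT2 (0.00349), and both calls were kept in all alternatives. Tekt3 was listed at 0 in all BASC and AT2 samples and at 26 and 20 in Club cells, and was called lower in both (0.0313 and 0.0218). The BASC call was lost without either BASC library (up to 0.0798) and the AT2 call without either AT2 library (up to 0.0729). Tekt4 was at 15 and 27, 3 and 0, and 123 and 155, and was lower in AT2 (0.00878; lost without either Club library, up to 0.115) and not called in BASC (0.177). Tekt2 was at 13 and 24, 46 and 9, and 110 and 71 and was not called. The sperm tektin Tekt5, singled out after its values were seen, was at 0 and 0, 16 and 13, and 1 and 0, with no call.

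The 26 Cfap genes, for cilia and flagella associated proteins of several parts of the axoneme, summed to 3057 and 2534 in the BASC samples, 2125 and 2259 in the AT2 samples and 11883 and 11674 in the Club samples. Limma called 10 of 26 lower in BASC than in Club cells and 0 higher (20 and 0 at an unadjusted p under 0.05), beside 5.42% lower over all genes (13.3% unadjusted). In AT2, 20 of 26 were lower and 0 higher (22 and 1 unadjusted), beside 9.71% lower over all genes (16.6% unadjusted). Cfap44 and Cfap43, which tether an inner arm dynein, were at 135 and 96 (Cfap44) and 196 and 191 (Cfap43) in BASC. In AT2 they were at 15 and 0 and at 37 and 1, and in Club cells at 1514 and 1583 and at 1332 and 1360. Both were lower in AT2 (206-fold for Cfap44, limma adjusted p = 0.00265, and 70.8-fold for Cfap43, 0.00597) and were not called in BASC (0.0905 and 0.201). The BASC samples lay between the other groups without overlap, at 7.46% (Cfap44) and 14.4% (Cfap43) of the Club level. Exons of Cfap43 share 2.32% of their bases with Itprip on the same strand. The AT2 calls were lost without either Club library (adjusted p up to 0.124 and 0.171).

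The central pair gene Cfap74 was at 21 and 24 in the BASC samples, 0 in both AT2 samples and 421 and 372 in the Club samples, 17.6-fold lower in BASC (limma adjusted p = 0.0295) and at least 144-fold lower in AT2 (0.000789). Cfap161, an inner protein of the doublets whose promoter is printed above, was listed at 0 in BASC and AT2 and at 132 and 216 in Club cells, at least 51.4-fold lower in BASC (0.00526) and at least 63.3-fold lower in AT2 (0.00329). Cfap99 was listed at 0 in the same 4 samples and at 80 and 74 in Club cells. The calls of Cfap161 and Cfap99 were kept in all alternatives, and that of Cfap74 in BASC was lost without each BASC and each Club library (up to 0.161). Cfap206, a protein of the radial spoke base, had the opposite order of the low groups, with 5 and 0 in the BASC samples, 21 and 13 in the AT2 samples and 325 and 384 in the Club samples. It was called lower in both (0.00749 and 0.0350), and both calls were lost without either Club library, that in AT2 also without either AT2 library (up to 0.148 and 0.252).

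Other Cfap genes named by their size of change had few reads outside Club cells. Cfap57 and Cfap61 were called lower in BASC and AT2, with at most 6 in any BASC or AT2 sample. Cfap52, Cfap70, Cfap77 and Cfap221 were called lower in AT2 and not in BASC, with between 0 and 23 in BASC and AT2 and between 70 and 239 in Club cells. In all 6 genes the BASC and AT2 samples lay under both Club samples. These calls were lost without either Club library, with adjusted p up to 0.267 (Cfap52 in AT2). In BASC that of Cfap57 was also lost without BASC replicate 1 and that of Cfap61 without either BASC library, and in AT2 those of Cfap52, Cfap70 and Cfap221 were also lost without either AT2 library. Cfap20, a protein of the inner junction of the doublets, differed from these: it was at 1015 and 837 in the BASC samples, 583 and 842 in the AT2 samples and 857 and 648 in the Club samples, and was not called in any comparison. Cfap36 and Cfap97, singled out after their values were seen, were likewise between 289 and 721 in all samples, with no call.

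The table held 4 assembly factor genes, whose products fold dynein arms before transport. Dnaaf1 was at 1 and 78 in the BASC samples, 0 in both AT2 samples and 187 and 123 in the Club samples, at least 56.4-fold lower in AT2 (limma adjusted p = 0.0269) and not called in BASC (0.257). Its exons share 20.7% of their bases with Taf1c on the opposite strand. Dnaaf3 was at 11 and 8, 6 and 4, and 138 and 126, 13.9-fold lower in BASC (0.0456) and 26.4-fold lower in AT2 (0.0156). Dnaaf5 was at 300 and 123, 259 and 103, and 263 and 260 and was not called, and its groups overlapped. The calls of Dnaaf1 and Dnaaf3 were lost without either Club library and without AT2 replicate 2, or in BASC either BASC library, and that of Dnaaf1 also without AT2 replicate 1 (adjusted p up to 0.263).

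The Spag genes, named for sperm-associated antigens, held both patterns. Spag17 (chr3:99885417-100143322), a large protein of the central pair, was at 44 and 39 in the BASC samples, 0 in both AT2 samples and 685 and 570 in the Club samples. It was 15.1-fold lower in BASC than in Club cells (log2 difference -3.88 ± 0.81, limma adjusted p = 0.0244) and at least 228-fold lower in AT2 (adjusted p = 0.000334). Spag16, of the same structure, was at 38 and 26, 0 and 2, and 256 and 364, lower in AT2 (0.00210) and not called in BASC (0.0788). Spag6l, also of the central pair, was at 48 and 0, 0 and 0, and 267 and 287, lower in AT2 (at least 101-fold, 0.0205). The AT2 call of Spag17 was kept in all alternatives. Its BASC call was lost without each BASC and each Club library (up to 0.191), that of Spag16 without either Club library (up to 0.0663), and that of Spag6l without each AT2 and each Club library (up to 0.222).

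Spag9 went the other way. It encodes a scaffold of JNK kinases and motor proteins rather than a part of the axoneme, and was at 3247 and 3153 in the BASC samples, 2750 and 3282 in the AT2 samples and 1888 and 2139 in the Club samples. It was higher than in Club cells in BASC (1.59-fold, log2 difference 0.67 ± 0.14, limma adjusted p = 0.0235) and in AT2 (1.5-fold, 0.58 ± 0.14, 0.0274), with all 4 samples above both Club samples. Both calls were lost without either Club or either BASC library, and that in AT2 also without AT2 replicate 2 (adjusted p up to 0.231 and 0.233 over the alternatives). Spag7 was at 430 and 514, 679 and 703, and 623 and 573 and was not called. Summed, the 9 Spag genes had average sums of 3936 (BASC), 3892 (AT2) and 4104 (Club), and Spag9 made up 74.9% to 81.7% of the sum in the BASC and AT2 samples and 46.9% and 51.1% in the Club samples.

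**Figure D3:**
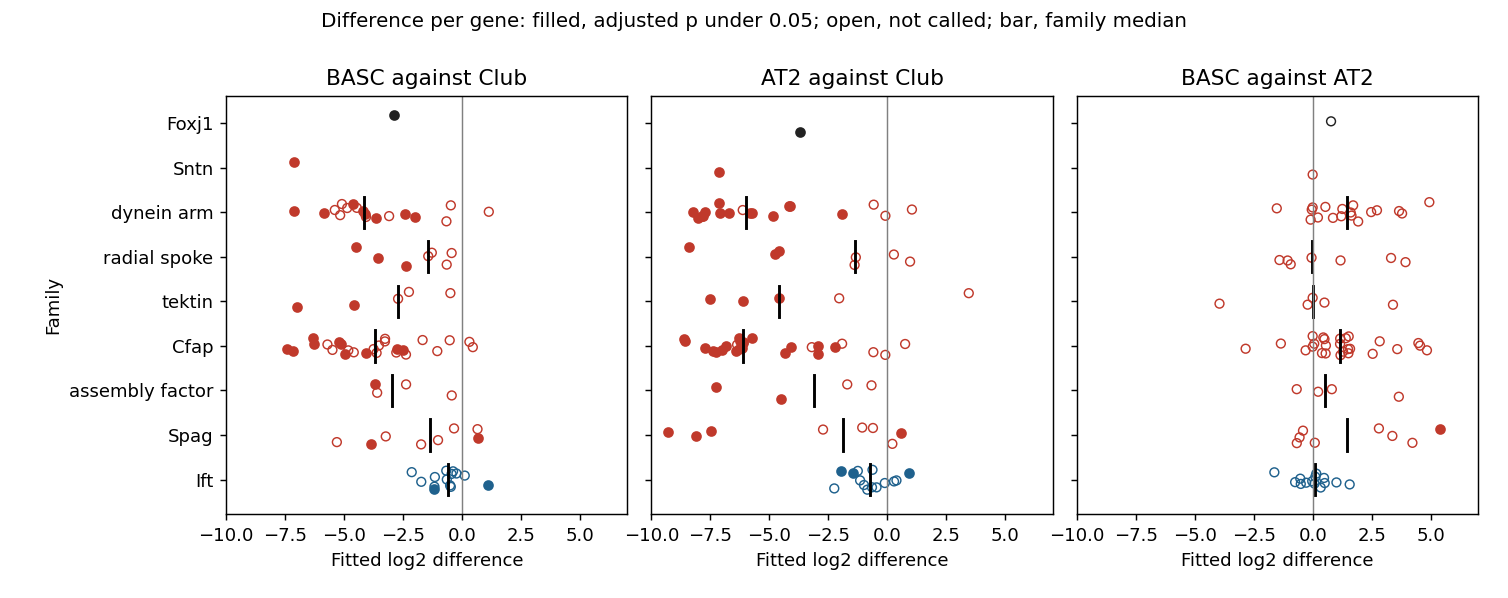
Fitted log2 differences of the 84 genes tested, by family, in the 3 comparisons; each circle is 1 gene, filled where the limma adjusted p was under 0.05, and the black bar is the family median. Against Club cells most dynein arm and Cfap circles lie to the left, with family medians of -4.16 and -3.69 in BASC and -5.98 and -6.14 in AT2, whereas Ift circles lie near 0, with medians of -0.58 and -0.75.

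Few Ift genes passed the test between populations. In BASC against Club cells 1 of 14 was lower and 1 higher, and in AT2 against Club cells 2 were lower and 1 higher. This is 14.3% and 21.4% called, near the 11.2% and 18.1% of all genes tested. At an unadjusted p under 0.05, 6 of 14 were lower and 1 higher in BASC, where 13.3% and 11.3% of all genes were. In AT2 8 of 14 were lower and 1 higher unadjusted, where 16.6% and 13.9% of all genes were. All 14 genes passed the filter through BASC and AT2 values as well. Without either Club library no Ift gene was called in either comparison. In BASC against Club cells 0 were called without BASC replicate 2 and 1 without BASC replicate 1 or either AT2 library, and in AT2 against Club cells 1 was called without AT2 replicate 1. The medians of the fitted log2 difference, -0.58 and -0.75, lay under those of all genes (-0.10 in both).

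Ift20 (chr11:78536361-78541737, plus strand), the small IFT-B subunit that also sits at the Golgi, was at 899 and 947 in the BASC samples, 961 and 716 in the AT2 samples and 454 and 419 in the Club samples. It was the Ift gene called higher: 2.11-fold in BASC (log2 difference 1.08 ± 0.20, limma adjusted p = 0.0169) and 1.92-fold in AT2 (0.93 ± 0.20, 0.0207), with all 4 values above both Club values. The promoter of Ift20 printed above holds no X-box core. The BASC call was lost without each BASC and each Club library (adjusted p between 0.0833 and 0.168), and the AT2 call without AT2 replicate 1 (0.0832) and each Club library (0.137 and 0.165).

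In the IFT-A complex, which serves the return transport, the 3 members differed. Ift140 was at 411 and 266 in the BASC samples, 476 and 645 in the AT2 samples and 727 and 801 in the Club samples, 2.26-fold lower in BASC (log2 difference -1.20 ± 0.28, limma adjusted p = 0.0344) and not called in AT2 (0.326). That call was lost without each of the 6 libraries (adjusted p between 0.0555 and 0.299). Ift122 had the same order, with 177 and 69, 272 and 432, and 384 and 357, and was not called. Ift43 was at 134 and 161, 45 and 53, and 186 and 199, 3.93-fold lower in AT2 (0.0202) and not called in BASC (0.651). Its call was lost without AT2 replicate 1 and without each Club library (up to 0.147).

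In the IFT-B complex, which serves the outward transport, Ift52 was at 201 and 297 in the BASC samples, 121 and 121 in the AT2 samples and 261 and 427 in the Club samples, 2.84-fold lower in AT2 (limma adjusted p = 0.0355), a call lost without 5 of the 6 libraries (all but BASC replicate 1; up to 0.245). Ift172, the largest subunit, was at 722 and 723, 767 and 424, and 985 and 1078, and Ift81, which binds tubulin together with Ift74, at 482 and 588, 615 and 473, and 945 and 741. Neither was called, though both Club samples lay above the other 4 in each. The 95% interval of the log2 difference between BASC and Club cells was -1.17 to 0.14 for Ift172 and -1.20 to -0.10 for Ift81, so a missing call does not show equal levels. Ift74 was at 182 and 56, 150 and 58, and 431 and 467 and Ift88 at 276 and 199, 157 and 313, and 573 and 491, with adjusted p of 0.0903 and 0.103 in BASC and 0.0572 and 0.0631 in AT2. Ift57, whose promoter is printed above, was at 125 and 180, 104 and 106, and 207 and 213, and Ift22, Ift27, Ift46 and Ift80 were between 62 and 600 in all samples, with no call.

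**Figure D4:**
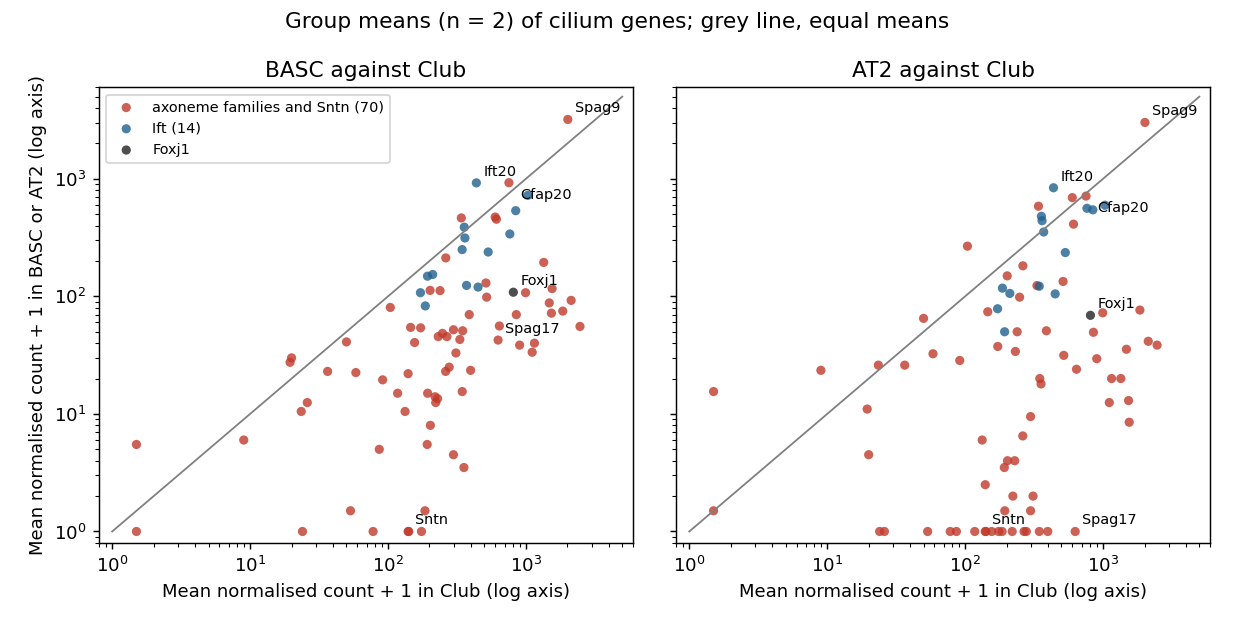
Mean normalised read count plus 1 in BASC (left) or AT2 (right) against that in Club cells, on log axes, each point 1 gene and the grey line equal means (n = 2 per group). Ift points lie close to the line, Ift20 and Spag9 above it, and most axoneme points well under it, with Sntn at 0 in both panels and Spag17 at 0 in AT2.

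Compared per length, axoneme and Ift genes were close in Club cells and far apart in BASC and AT2. Values were divided by the exon length of each gene in GENCODE M21, giving normalised counts per kilobase. The lengths may not be those of the models counted, since 48 of the 85 genes have the same start and end in both; Dnah12, for example, spans fewer bases in the table than its exons do in M21. The median axoneme gene was at 5.18 and 4.71 per kilobase in the BASC samples, 2.19 and 0.381 in the AT2 samples and 67.6 and 66.9 in the Club samples. The median Ift gene was at 59.98 and 40.1, 45.7 and 42.5, and 90.2 and 101. The median axoneme level was therefore 8.63% and 11.8% of the median Ift level in the BASC samples, 4.78% and 0.896% in the AT2 samples and 75.0% and 66.2% in the Club samples, with no overlap between the 3 groups. This ratio is a description of chosen genes, and was not tested. Among single genes, the per-kilobase mean in Club cells was 309 for Foxj1, 251 for Rsph1, 186 for Dnah6, 136 for Dnah5 and 112 for Sntn, and 286 for Ift20 and 156 for Ift172.

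**Figure D5:**
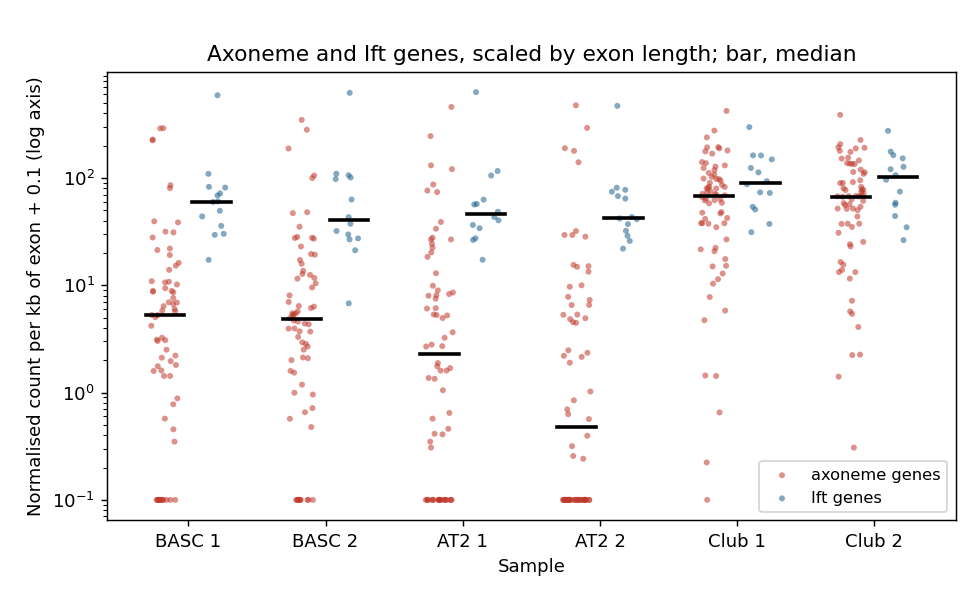
Normalised counts per kilobase of exon plus 0.1 on a log axis, each point 1 gene in 1 sample, with axoneme genes in red, Ift genes in blue and black bars at the medians. The red and blue bars are close in the 2 Club samples (67.6 and 90.2 in replicate 1) and far apart in BASC and AT2 (0.381 and 42.5 in AT2 replicate 2).

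Between BASC and AT2, axoneme genes tended to higher values in BASC, but 1 gene was called. The fitted log2 difference was positive in 48 and negative in 16 of the 69 axoneme genes, with a median of 1.16 (1.17 with the floor), against 0 over all genes tested. Family medians were 1.17 for Cfap, 1.43 for dynein arm, 1.45 for Spag and 0.52 for assembly factor genes. Radial spoke and tektin genes did not share the lean, with medians of -0.05 and 0. The axoneme sums averaged 8237.5 in BASC and 7355.5 in AT2, and many of the single values lie near the floor. Both BASC samples lay above both AT2 samples in 23 of 70 axoneme genes and under them in 4, where these shares over all genes were 18.3% and 18.9%. In AT2 17 axoneme genes were at 0 in both samples, and in BASC 6 were. AT2 replicate 2 had 31 of the 70 axoneme genes at 0 (44.3%) and AT2 replicate 1 had 20 (28.6%), with 13 (18.6%) and 10 (14.3%) in the BASC samples. Of all genes in the table, 20.9% and 19.2% were at 0 in these AT2 samples and 19.1% and 19.2% in the BASC samples. The called gene was Spag17, at 44 and 39 in the BASC samples and 0 in both AT2 samples, at least 15.1-fold higher in BASC (log2 difference 5.41 ± 0.81, limma adjusted p = 0.0417), where 0.632% of all genes were called, 0.553% higher and 0.079% lower in BASC. At an unadjusted p under 0.05, 16 axoneme genes were higher and 3 lower in BASC, where 7.09% of all genes tested were higher and 6.09% lower. The Spag17 call was lost without each of the 6 libraries (adjusted p between 0.0660 and 0.272), and the count was 3 without AT2 replicate 1 and 0 without any other library. The exons of Spag17 share 9.66% of their bases with Wdr3 on the opposite strand.

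Ift genes had no such lean between BASC and AT2. Limma called 0 of 14, with 2 higher and 2 lower at an unadjusted p under 0.05, and the median log2 difference was 0.10. Both BASC samples lay above AT2 for Ift22, Ift43, Ift52 and Ift57, and under AT2 for Ift27, Ift46, Ift122 and Ift140. The sign of the median turned without BASC replicate 1 (-0.02) and without AT2 replicate 2 (-0.15).

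Genes of the motile axoneme with other names were counted from a separate list. Of 35 tested, limma called 13 lower in BASC and 23 lower in AT2 than in Club cells and 0 higher (25, 27 and 0 at an unadjusted p under 0.05), with medians of -3.79 and -5.53. Over all genes tested, 5.42% were called lower in BASC and 9.71% in AT2 (13.3% and 16.6% unadjusted). Hydin, a giant protein of the central pair, was at 75 and 23 in the BASC samples, 54 and 14 in the AT2 samples and 1757 and 1611 in the Club samples (limma adjusted p = 0.00570 in BASC and 0.00226 in AT2). Drc1, of the nexin-dynein regulatory complex, was at 19 and 76, 0 and 0, and 394 and 525, lower in AT2 (0.00113). The Hydin calls were lost without either Club library, that in BASC also without BASC replicate 2 (up to 0.187 and 0.115), and that of Drc1 without Club replicate 2 (0.0532). Between BASC and AT2 limma called 0 of the 35 (8 higher and 1 lower in BASC unadjusted, where 7.09% and 6.09% of all genes were).

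Some lists hold genes that primary cilia use too. Of 19 other IFT subunits and motors, Traf3ip1, which encodes IFT54, was lower in BASC (167 and 125, against 1172 and 1342 in Club cells, limma adjusted p = 0.00892), and Traf3ip1 and Wdr19, which encodes IFT144, were lower in AT2. Of 13 genes of the BBSome, a membrane cargo adaptor, limma called 0 in BASC (3 lower at an unadjusted p under 0.05), and Arl6 was lower in AT2 (13 and 36, 17 and 15, and 106 and 166; 8.50-fold), with an adjusted p just under the threshold. Of 18 transition zone genes, which gate the cilium base, Rpgrip1l and Cep290 were lower in BASC, and these and Tmem237 in AT2. The medians of the 3 lists lay between -0.69 and -0.82 in BASC and between -0.80 and -1.39 in AT2. All these calls were lower, 2 of 18 transition zone genes in BASC and 3 of 18 in AT2 among them. Of all genes, 5.42% and 9.71% were called lower in these comparisons, and 11.2% and 18.1% in either direction. At an unadjusted p under 0.05, 4 transition zone genes were lower in BASC and 9 in AT2. For the other IFT list these counts were 4 and 9, and for the BBSome 3 and 5. None of the 3 lists had a gene higher, and 13.3% and 16.6% of all genes were lower unadjusted. Each of these calls was lost without either Club library. That of Rpgrip1l was lost without each of the 6 libraries in both comparisons, that of Cep290 in BASC without every library but BASC replicate 1 and in AT2 also without AT2 replicate 2. Those of Traf3ip1 were also lost without either BASC library, and that of Arl6 without either AT2 library and in 4 other settings.

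Markers of ciliated cells moved with the axoneme genes. All 16 markers of the list were in the table, and 4 of them (Foxj1, Sntn, Tekt1 and Rsph1) are also among the 85 genes. The 12 others summed to 811 and 989 in the BASC samples, 740 and 837 in the AT2 samples and 4283 and 4468 in the Club samples. Of these 12, limma called 6 lower in BASC and 10 lower in AT2 than in Club cells, where 5.42% and 9.71% of all genes were called lower. Of all 16, 0 were called between BASC and AT2 (5 higher in BASC unadjusted, where 7.09% of all genes were). The level did not go to 0 for every marker: Tppp3, a tubulin-binding protein, was at 591 and 570 in BASC and 527 and 718 in AT2, against 1437 and 1612 in Club cells, whereas Tmem212 was at 0 and 1, 0 and 0, and 80 and 63. The 3 goblet cell markers summed to between 20 and 140 in BASC and AT2 and to 1683 and 1916 in Club cells, and the 2 immune markers in the table to between 242 and 355 in BASC and AT2 and to 126 and 134 in Club cells. The part of ciliated cells in the sorted Club samples was not tested, and neither was the part of reads from other cells in the low values of BASC and AT2.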

How the data were processed

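RNA of 6 sorted samples (2 each of BASC, AT2 and Club cells) had been prepared with a SMARTer Stranded Total RNA Pico kit, per the labels' protocols. FastQC, STAR 2.4.0a and featureCounts 1.4.5-p1 with the build GRCm38 (mm10) are named per the submitters' processing notes. The authors deposited a gene table of signal values, which are read counts scaled between samples and rounded to whole numbers. How the values were scaled, whether counting used strand, and which annotation was counted is not given in the sources used here. Because raw counts cannot be recovered in every sample, no count model was run, and the depth was estimated from the spacing of the values (0.764 to 1.34 units per read). Floors of 3 reads per library cover counting error only.

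Values were tested as log2(value + 1) with limma 3.58.1 in R 4.3.3, with a mean-variance trend and all 6 samples in a single fit, over 17721 genes with at least 10 in 2 samples. Folds are ratios of group means, and log2 differences are on the log2(value + 1) scale, which understates the change of low genes. Adjusted p-values are Benjamini-Hochberg values from limma over all genes tested, and intervals are 95% intervals of the fit. In data simulated for BASC against Club cells over 17191 genes, 98% of 4-fold and 100% of 8-fold changes were recovered, with 16 false calls. The simulation assumed the same spread for all genes and put changes only into genes above a minimum mean. Replicates of the axoneme genes differed by a median of 0.81 log2 units in BASC and 1 in AT2. The simulation therefore does not give the power for these genes. Lengths are exon unions from GENCODE M21 and promoters are RefSeq windows of GRCm38.p6, tabulated with Python 3.11.15 and pandas 2.3.3.

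The genes, lists and tests were chosen with earlier results of these data known. The genes named are Foxj1 and Sntn, called members (up to the 12 with the largest change per family), the 3 members with the highest mean in each family, and up to 4 called genes per other list and comparison; other names were added after their values were seen. Alternatives were other pseudocounts, filters and scalings, a fit without the trend, a replicate block, fewer genes or samples in the fit, and leaving out each library.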

Additional observations from a re-analysis of the deposited data

Results flagged for a closer look

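Reads were present in 3 antisense RNA genes that lie against members and are not among the 85 genes. Ift88os was at 145 in AT2 replicate 1, where 3 reads correspond to 2.29 units, and at 19 and 0 in BASC, 25 in AT2 replicate 2, and 21 and 4 in Club cells. Its exons share 67 bases, or 1.45%, with those of Ift88, which was at 157 in the same AT2 sample and 313 in the other. Dnah2os was at 9 in BASC replicate 1 (floor 4.02) and at 0 in all other samples. Spag17os was at 8 in Club replicate 1 (floor 2.47), at 1 in Club replicate 2 and at 0 elsewhere. Dnah2os and Spag17os passed the limit that 3 reads set in 1 sample each, and Ift88os in every sample but BASC replicate 2. No comparison of the report used these genes.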

How the results depend on the processing

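No called result turned its direction among the alternatives run. Axoneme genes called between BASC and AT2 numbered 1, and 0 with a pseudocount of 5, 0 with the replicate block, 0 with the 4 samples compared alone, 2 with a filter of 50, 3 without the trend, and from 0 to 3 when 1 library was left out. Axoneme genes called in BASC against Club cells numbered 27, and from 7 to 35 with 1 library left out. In AT2 against Club cells they numbered 47, and from 11 to 44. Ift genes called numbered 2 in BASC against Club cells, 0 without the trend, and from 0 to 1 with 1 library left out. In AT2 against Club cells they numbered 3, with 6 at a filter of 50, 5 under scaling to the same total, 5 among protein-coding genes, 1 without the trend, and from 0 to 3 with 1 library left out. A group left with 1 sample was assumed to vary like the others. Over all genes, calls in BASC against Club cells fell from 1983 to 704 and 705 without Club replicate 1 and 2. Deviations of same-numbered samples correlated at 0.0060, 0.0085 and 0.0118, so the replicate numbers were not taken to pair the samples. With the replicate block, 28, 47 and 0 axoneme genes and 3, 4 and 0 Ift genes were called in BASC against Club cells, AT2 against Club cells and BASC against AT2. Scaling to the same total moved the median of all genes by -0.11 in AT2 against Club cells. Of the named genes, 9 of 38 called in BASC against Club cells, 15 of 60 in AT2 against Club cells and 0 of 3 between BASC and AT2 were called in every alternative. Those 9 were Sftpc and Scgb1a1, on which the sort rests, and Cfap161, Cfap99, Deup1, Dnah12, Sntn, Tekt1 and Trp73. The latter genes were at 0 or 1 in all BASC and AT2 samples, where replicates show almost no spread. All 9 were also among the 15, and the other genes of the 15 were at 0 or 1 in both AT2 samples. These tallies therefore do not rank the firmness of the calls. Of 101 calls of named genes, 29 were lost without the trend, 10 with a pseudocount of 0.5, 7 with the replicate block and 2 to 5 each with a pseudocount of 5, no filter, quantile normalization or only the 4 samples compared.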

Other observations

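Some members and regulators were not named above. The inner arm gene Dnah2 stood at 139 and 119 in the BASC samples, 118 and 148 in the AT2 samples and 565 and 460 in the Club samples. It was called lower in BASC and AT2 than in Club cells (limma adjusted p = 0.00955 and 0.00649), and is part of the dynein arm counts above. Its calls were not followed over the alternatives. Ccno, which acts in centriole multiplication, was at 154 and 151, 164 and 163, and 172 and 212 and was not called. Ccdc78, another centriole gene, was at 0 and 43, 17 and 0, and 250 and 209.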
